A study of Homo sapiens with 12 samples.

Results

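The genes described here carry methionine towards cysteine: MAT2A, AHCY, MTR, CBS and CTH, together with SLC7A11, which brings cystine into the cell. They were taken by gene symbol, as 6 of the 63677 identifiers in the table, and they were selected on their differences between CR3 and the other groups, which are therefore given as a description with no test. Levels came from polyA RNA sequencing of HCT116, an established human colorectal cancer line, in 12 libraries. Every group consisted of HCT116 clones that had received doxycycline, and the groups differed in the construct the drug switches on. CR3 cells carried CR3, in the submitters' words a condensate perturbing peptide. Condensates are assemblies of protein and RNA that no membrane encloses. Reverse and scramble cells carried variants of it, as the series describes them, and mCherry cells a fluorescent protein that served as the control. Each group had 3 libraries. The number of clones behind each construct is not stated, so a difference between clones and a difference between constructs cannot be told apart. No library came from cells without the drug. Nothing in the labels says that the 3 libraries of a group came from separate cultures, so their spread may be technical.

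In the methionine cycle, MAT2A joins methionine to ATP to make S-adenosylmethionine, the methyl donor of most methylation reactions. The product left after methyl transfer is split by AHCY into homocysteine and adenosine. Homocysteine then has a pair of fates: MTR, which needs cobalamin, returns it to methionine with a methyl group from folate, or CBS joins it to serine to give cystathionine, which CTH cleaves into cysteine. SLC7A11 exchanges extracellular cystine for glutamate and offers a source of cysteine that does not pass through homocysteine. CBS and CTH can also release hydrogen sulfide, and inherited loss of CBS causes homocystinuria. CBS has been studied as a source of hydrogen sulfide in colorectal cancer cells.

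Start regions of the genes are shown because CBS, the member whose level separated the groups most, can be set beside AHCY, an abundant member that was lower in CR3, and CTH, whose CR3 libraries overlapped those of each other group. RefSeq start windows on GRCh38.p14, with 250 bases before and 50 after a start, were matched for 5 of the 6 members and gave 10 windows. The 4 printed windows are chr21:43075786-43076085 and chr21:43076328-43076627 for CBS on the minus strand, chr20:34303306-34303605 for AHCY on the minus strand and chr1:70411018-70411317 for CTH on the plus strand. Each is given 5′ to 3′ on the strand of its gene, and capitals mark GC boxes, the letters GGGCGG read on either strand.
CBS, first window: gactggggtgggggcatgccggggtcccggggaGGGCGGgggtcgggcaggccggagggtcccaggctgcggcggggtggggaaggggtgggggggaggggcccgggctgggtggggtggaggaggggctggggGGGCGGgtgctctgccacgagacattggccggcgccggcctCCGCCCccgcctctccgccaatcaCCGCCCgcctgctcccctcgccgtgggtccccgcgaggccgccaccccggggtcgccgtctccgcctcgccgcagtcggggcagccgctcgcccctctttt
CBS, second window: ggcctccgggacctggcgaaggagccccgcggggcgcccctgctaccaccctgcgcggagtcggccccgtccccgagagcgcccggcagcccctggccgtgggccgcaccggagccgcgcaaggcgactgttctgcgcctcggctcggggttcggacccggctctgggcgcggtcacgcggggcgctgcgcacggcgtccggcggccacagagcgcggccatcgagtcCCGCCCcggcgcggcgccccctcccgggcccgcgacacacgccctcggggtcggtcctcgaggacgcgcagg
AHCY: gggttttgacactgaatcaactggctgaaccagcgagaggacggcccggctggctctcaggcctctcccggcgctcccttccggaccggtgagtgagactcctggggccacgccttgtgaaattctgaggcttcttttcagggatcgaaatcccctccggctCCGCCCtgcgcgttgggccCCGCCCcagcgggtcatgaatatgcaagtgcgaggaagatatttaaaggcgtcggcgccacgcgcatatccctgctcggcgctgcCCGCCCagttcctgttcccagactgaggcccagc
CTH: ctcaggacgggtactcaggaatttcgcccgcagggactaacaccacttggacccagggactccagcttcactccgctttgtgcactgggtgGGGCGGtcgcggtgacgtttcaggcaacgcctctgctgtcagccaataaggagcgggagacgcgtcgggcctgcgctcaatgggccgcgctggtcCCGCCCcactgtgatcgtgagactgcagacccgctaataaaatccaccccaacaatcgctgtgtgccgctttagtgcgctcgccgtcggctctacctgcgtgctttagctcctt
The first CBS window held 4 GC boxes and was 80.0% G or C, and the second held 1 at 80.7%. The third CBS window, chr21:43068355-43068654, held none and was 50.7% G or C. The printed AHCY window held 3 and the CTH window 2. Of the AHCY windows not printed, chr20:34302941-34303240 held 2 and chr20:34311753-34312052 held 0. MAT2A had 3 in its window, and each of the 2 overlapping MTR windows had 1. GC boxes were found in 45.0% of all 35116 windows of this length. An antioxidant response element (TGACNNNGC, either strand, present in 13.3% of windows) was found once, in the second CBS window, where it did not overlap the GC box. Neither TGATGNAA, the core letters of the element read by ATF4 with a C/EBP partner (3.62% of windows), nor the E-box CACGTG (7.26%) occurred in any of the 10 windows.

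The libraries held 17418038 to 23548363 reads assigned to genes. At least 1 read was found for 22849 to 23667 identifiers in the CR3 libraries, against 21451 to 22357 in the reverse libraries, 21604 to 21846 in the scramble libraries and 21524 to 21926 in the mCherry libraries. Normalized reads, the unit of all levels here, are counts after division by the size factor of their library. A gene is called past the threshold when its adjusted p was under 0.05 in limma across all 15382 tested genes. Over the whole transcriptome CR3 was separate from the remaining 9 libraries: 22.3% of tested genes were past the threshold in the same direction against all 3 other groups. Some markers of other cell types moved with that split and others did not. An effect of the construct and a difference in the cells that carry it cannot be told apart in any CR3 value here. Whether the CR3 libraries hold cells of another line was not tested. The summed level of 17 markers of embryonic kidney lines and neuron-like lines was 4033 to 4423 normalized reads in CR3, against 2131 to 2289 in reverse, 2144 to 2208 in scramble and 2111 to 2242 in mCherry. Within this list, IRS4, NEFM, UCHL1, INA, NID1 and CDH2 reached 10 reads in 3 libraries only through CR3. The sum holds these genes, and the list was written with earlier results known. Its height in CR3 is therefore a description and gives no support for a cell type. PAX2, ZIC2 and ZIC5 were at like levels in all groups, and TUBB3 and GAL were past the threshold downwards. In the list of intestinal epithelium, EPCAM, CDH1, KRT8, KRT18, KRT19 and CDX2 had a mean of at least 314 normalized reads in every group. VIL1, CDH17, LGALS4 and CDX1 of that list stayed under 10 in every library. KRT20 had at most 26.1 and GPA33 at most 20.8 in any library. Whether these levels show the labelled cell type was not tested.

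CBS was close to absent in 9 libraries and well expressed in the other 3. CBS (ENSG00000160200, chr21:43053191-43076943, minus strand, GRCh38) had 619, 554 and 565 normalized reads in the CR3 libraries. It had 2.08, 1.02 and 3.60 in reverse, 3.84, 5.61 and 0.877 in scramble, and 1.04, 0.841 and 4.27 in mCherry. Every CR3 library thus lay far above all 9 others, and the libraries of reverse, scramble and mCherry overlapped one another. In rebuilt counts CBS had 1826 reads over the CR3 libraries, against 7 over reverse, 11 over scramble and 6 over mCherry. The ratio of these counts, each divided by the summed size factors of its group, was 252.5 (exact 95% counting interval 122 to 629) against reverse, 171.4 (95.5 to 344) against scramble and 297.8 (137 to 813) against mCherry. These intervals cover counting error only, and not error in the rebuilding of the counts. On the log2(normalized reads + 1) scale the differences were 7.57, 7.21 and 7.74 against reverse, scramble and mCherry (SE 0.457 each). CBS ranked as the 9th, 18th and 4th highest difference of the 15382 tested genes in those 3 comparisons. It passed the minimum of 10 reads in 3 libraries through the CR3 libraries only, so it could enter the test only by being high there. By level, CBS stood above 54.0% of tested genes in CR3, against 3.11% in reverse, 3.53% in scramble and 2.96% in mCherry.

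Within CR3 the coefficient of variation of CBS was 6.06% over the 3 libraries. It was 5.87% for AHCY, 3.22% for MAT2A, 10.9% for MTR, 12.7% for CTH and 18.0% for SLC7A11. The other groups held too few CBS reads for their order to be read. Reverse minus mCherry was 0.18 (SE 0.457, limma adjusted p = 0.932), scramble minus mCherry 0.53 (adjusted p = 0.633) and reverse minus scramble -0.36 (adjusted p = 0.899).

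**Figure D1:**
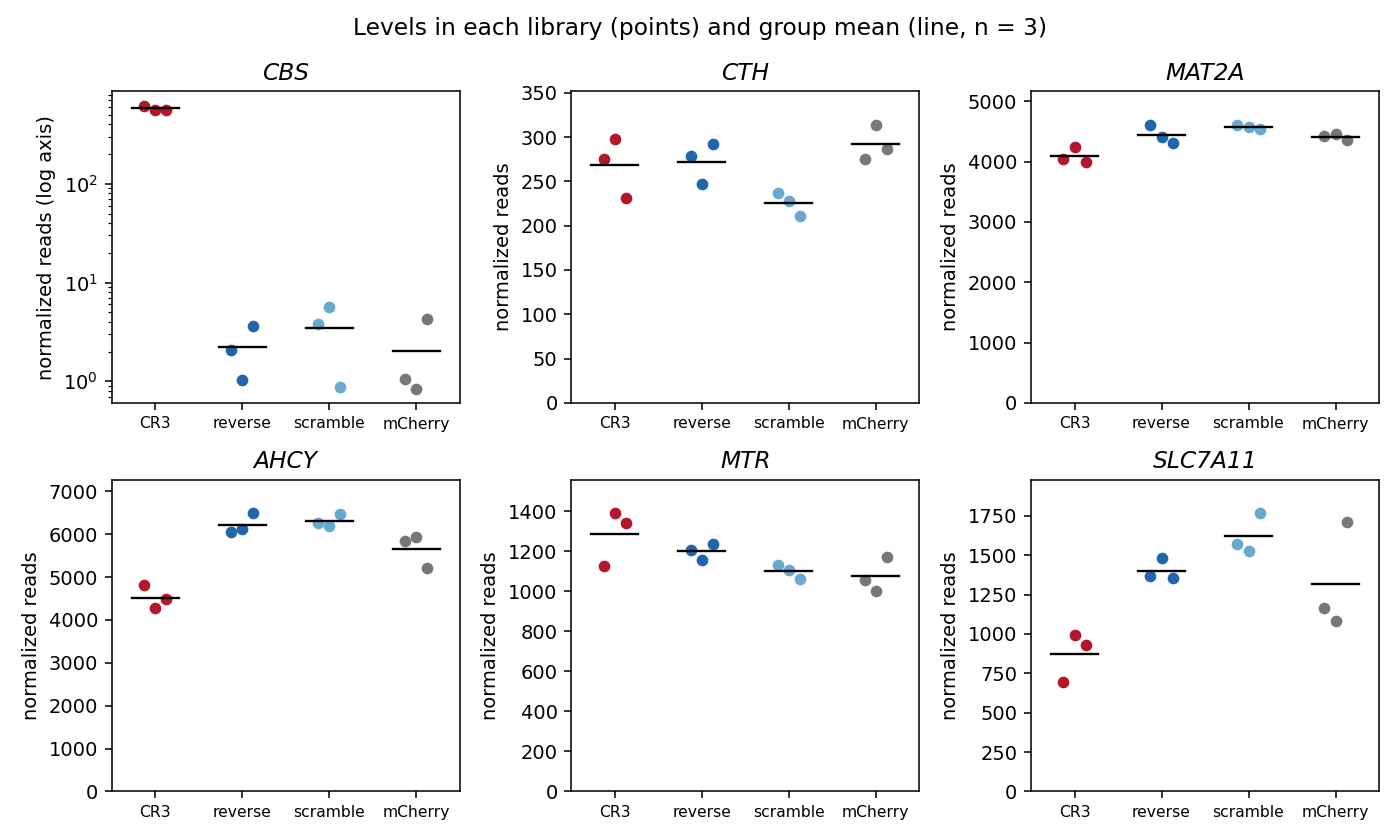
Normalized reads of the 6 genes in each library, as points, with the group mean as a line (n = 3 per group). The CBS axis is logarithmic and the other axes start at 0. CBS lies between 554 and 619 in CR3 and at 5.61 or below in the other 9 libraries, AHCY, MAT2A and SLC7A11 are lower in CR3 than in every other library, and the CTH and MTR points of CR3 overlap with those of other groups.

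Several marker genes of other cell types had a pattern like that of CBS in the plot of levels by library. IRS4, an insulin receptor substrate abundant in embryonic kidney lines, had 488, 587 and 575 normalized reads in CR3 and at most 6.73 in any other library. NID1, a basement membrane protein, averaged 554 in CR3, against 1.39 in reverse, 3.32 in scramble and 2.79 in mCherry. UCHL1, a neuronal deubiquitinase, averaged 494 in CR3, against 3.06 in reverse, 0.623 in scramble and 2.54 in mCherry. Of the 14 tested embryonic kidney or neuron-like markers, 8 were past the threshold upwards and 2 downwards against all 3 groups, or 8 and 0 when libraries were scaled by size alone. Of those 8, IRS4, NEFM, UCHL1, INA, NID1 and CDH2 met the read minimum through the CR3 libraries only, so their calls are a description like that of CBS, while LIN28B and TUBB2B met it in other groups too. Of all tested genes, 11% were higher and 11.3% lower, or 17.9% and 6.03% by library size alone. Of the 1692 genes higher with the deposited size factors, 539 met the minimum only through CR3. The transcription factor genes PAX2, ZIC2 and ZIC5 were at like levels in all groups (PAX2 averaged 239 in CR3, 241 in reverse, 215 in scramble and 246 in mCherry), and CRABP1 and SOX11 stayed under 10. Of 6 tested mesenchymal and fibroblast markers, 4 were higher in CR3 (5 by library size alone), of which SPARC met the read minimum only through CR3, and their list summed to 2544 to 2833 in CR3, against 1354 to 1537 in reverse, 1371 to 1433 in scramble and 1399 to 1727 in mCherry. VIM, an intermediate filament protein, averaged 764 in CR3, against 64.8 in reverse, 77.8 in scramble and 97.4 in mCherry, while COL1A2, COL3A1, DCN and THY1 were under 10 in every library.

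Liver markers, which belong to a tissue rich in CBS and CTH, did not move with CBS. Their list summed to 1540.1 to 1755 normalized reads in CR3, against 1684 to 1934 in reverse, 1677 to 1818 in scramble and 1808 to 1858 in mCherry, and none of 4 tested markers was past the threshold against all 3 groups. APOB, TTR and FGB had no read in any library, and ALB and APOA1 stayed under 10. Among 8 blood markers, PTPRC had no read anywhere and 1 of 3 tested, LAPTM5, was higher in CR3, at 1326 normalized reads, against 0.647 in reverse, 1.54 in scramble and 0.356 in mCherry. LAPTM5 also met the read minimum only through CR3. With LAPTM5 in it, the blood list summed to 1552 to 1662 in CR3, against 323 to 366 in reverse, 199 to 250.3 in scramble and 207 to 245 in mCherry. The intestinal list summed to 45703 to 52950.0 in CR3, against 55211 to 59270.0 in reverse, 57817 to 60964 in scramble and 55919 to 62836 in mCherry, and EPCAM, KRT8, KRT18 and KRT19 were the 4 of its 7 tested genes past the threshold against all 3 groups, each lower in CR3, of which EPCAM and KRT19 remained by library size alone. The marker calls stand beside 11% of all tested genes higher and 11.3% lower, or 17.9% and 6.03% by library size alone. The part of these markers in the CBS difference was not tested. In bulk libraries, few cells with much CBS RNA and many cells with little cannot be told apart.

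**Figure D2:**
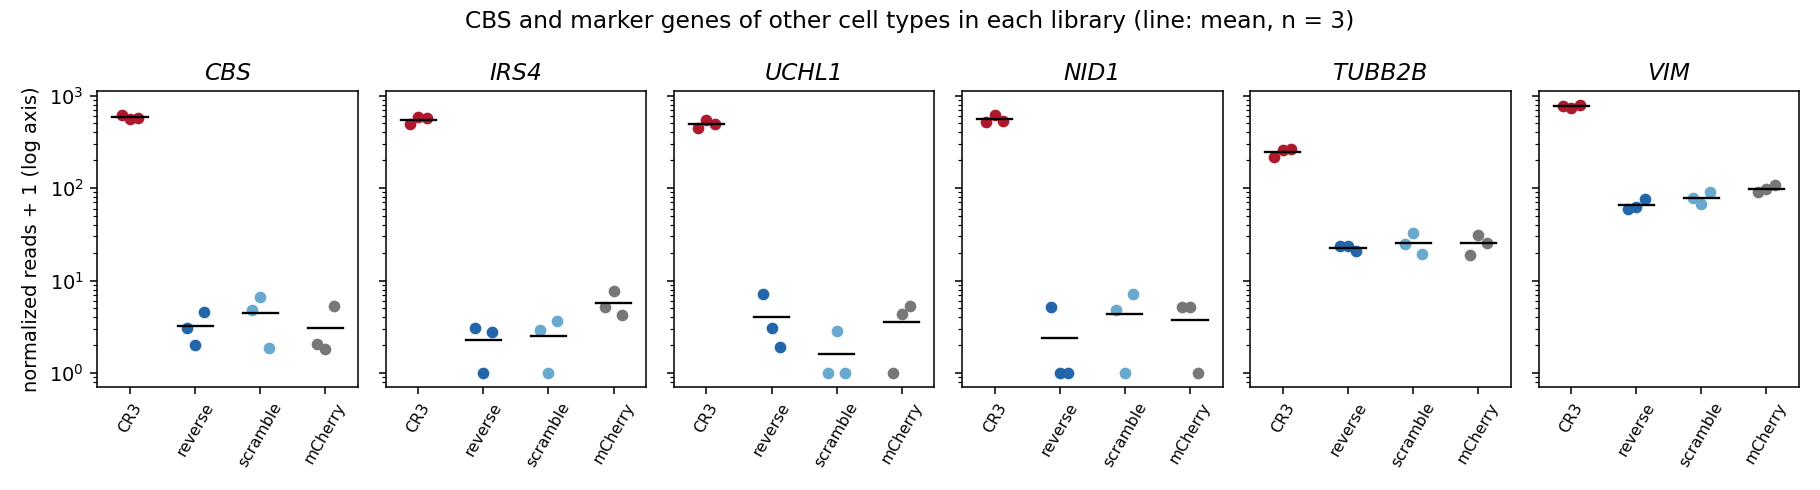
CBS beside 5 marker genes of other cell types in each library, as normalized reads + 1 on a logarithmic axis (points, libraries; line, mean; n = 3 per group). IRS4, UCHL1 and NID1 separate CR3 from the other 9 libraries as CBS does, and TUBB2B and VIM do so from a higher level in the other groups.

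The plot of CBS and the marker genes places them on 1 scale: TUBB2B, a neuronal tubulin, averaged 245 normalized reads in CR3, against 21.7 in reverse, 24.7 in scramble and 24.2 in mCherry. The genes whose log2 levels ran most nearly with CBS over the 12 libraries, among 11964 with a mean of at least 50, were NNT (r = 0.989), BEX4 (0.988), LAPTM5 (0.988), ADGRL2 (0.986) and SV2A (0.986). All of these share the split between the 3 CR3 libraries and the other 9, so r describes that split and little else. NNT averaged 267.5 normalized reads in CR3, against 0.947 in reverse, 1.55 in scramble and 1.76 in mCherry. SV2A averaged 261 in CR3, against 5.34 in reverse, 5.86 in scramble and 4.73 in mCherry.

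The genes on either side of CBS did not share its change. Within 400 kb on chromosome 21 lay 6 tested protein-coding neighbours, and none had a difference of more than 0.37 in size on the log2 scale in any comparison with CR3. PKNOX1, the nearest of them beyond the 3′ end of CBS, averaged 641 in CR3, against 594 in reverse, 602 in scramble and 601 in mCherry. U2AF1, which encodes a splicing factor subunit, was lower in CR3 by limma, with differences of -0.30, -0.30 and -0.23 against reverse, scramble and mCherry (adjusted p = 7.91e-05, 6.1e-05 and 0.00118). WDR4 passed in 1 of the 3, with -0.37 against scramble (limma adjusted p = 0.0248). CRYAA, a lens protein gene, had 0 or 1 reads in every library.

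**Figure D3:**
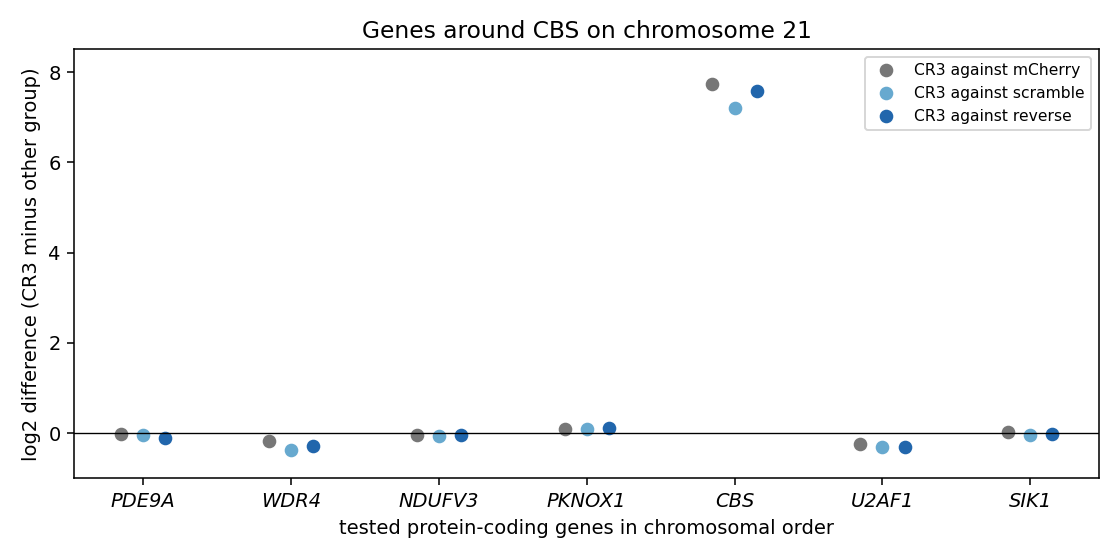
Log2 differences of the tested protein-coding genes around CBS, in chromosomal order, for CR3 against mCherry, scramble and reverse. CBS lies at 7.21 to 7.74 in the 3 comparisons and its 6 neighbours lie between -0.37 and 0.11.

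The plot of the neighbourhood also bears on how reads were assigned. GRCh38 carries a second copy of this segment with CBSL, a near-identical CBS (chr21:6444869-6468040 in GENCODE 29). The table has no row for CBSL, nor for U2AF1L5 and SIK1B, the copies of its neighbours. The highest identifier deposited, ENSG00000273493, comes before that of CBSL, ENSG00000274276, so the gene set used may not have held CBSL. The CBS-203 and CBSL-206 transcripts, of 2453 bases, differ at 1 base and are 99.959% identical, so few reads could be split between the pair. How reads that fit both copies were counted is not stated. The CBS values may therefore hold reads of either copy, or lack reads that fit both. U2AF1 and SIK1, which have such copies too, kept 2717 to 3950 and 222 to 335 reads in all 12 libraries.

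CTH, the enzyme that follows CBS, did not share its pattern. CTH (ENSG00000116761, chr1:70411218-70439851, plus strand) had 276, 297 and 231 normalized reads in CR3. It had 278, 246 and 292 in reverse, 237, 228 and 210.4 in scramble, and 276, 314 and 286 in mCherry. The CR3 libraries overlapped those of each other group. The log2 differences of CR3 were -0.03, 0.24 and -0.13 against reverse, scramble and mCherry (SE 0.109 each), and leaving out single libraries moved the first between -0.11 and 0.08. The one against scramble passed the threshold without CR3 replicate 3, at 0.35, and by library size alone, at 0.33. In the comparisons without CR3, the scramble libraries lay below both reverse and mCherry: scramble minus mCherry was -0.37 (SE 0.109, unadjusted p = 0.00336, limma adjusted p = 0.106) and reverse minus scramble 0.27 (adjusted p = 0.619), and neither passed. The genes whose profile over the 12 libraries was nearest to that of CTH were MEF2C (r = 0.923) and PLOD2 (r = 0.919).

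The members of the methionine cycle were abundant in all groups and differed far less. AHCY (ENSG00000101444, chr20:34280268-34311802, minus strand) had 4806, 4279 and 4482 normalized reads in CR3. It had 6042, 6112 and 6488 in reverse, 6252, 6204 and 6469.6 in scramble, and 5837, 5924 and 5206 in mCherry. The highest CR3 library stayed below the lowest of the other 9. CR3 stood at 0.728 of the reverse mean, 0.717 of the scramble mean and 0.7996 of the mCherry mean, and the log2 differences were -0.46, -0.48 and -0.32 (SE 0.0546 each). Among all tested genes these were the 825th, 787th and 1432nd lowest. Reverse and scramble were both slightly above mCherry, by 0.14 and 0.16 (limma adjusted p = 0.433 and 0.168), which did not pass. TRAP1 (r = 0.986) and SLC25A5 (r = 0.984) ran nearest to AHCY.

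MAT2A (ENSG00000168906, chr2:85539165-85545280, plus strand) had 4042, 4240.4 and 3991 normalized reads in CR3. It had 4602, 4401 and 4315 in reverse, 4608, 4565 and 4546 in scramble, and 4429, 4453 and 4352 in mCherry. All 3 CR3 libraries lay below the other 9, but the gap to the reverse and mCherry libraries was narrow. CR3 stood at 0.922, 0.895 and 0.927 of the reverse, scramble and mCherry means, and the log2 differences were -0.12, -0.16 and -0.11 (SE 0.0408 each). Scaling by library size alone shifted the median of all genes by 0.0945, 0.103 and 0.0905 in these comparisons, and the MAT2A differences became -0.03, -0.07 and -0.02, none of them past the threshold. Leaving out CR3 replicate 1, CR3 replicate 3, reverse replicate 1 or reverse replicate 2 took the difference from reverse out of the called range, and leaving out mCherry replicate 3 or CR3 replicate 2 brought the one from mCherry into it. The call against reverse was also lost with a minimum of 1 read in any library and in fits of 2 groups, and the one against mCherry was gained with trimmed mean scaling. The nearest profiles were those of RPA3 (r = 0.971) and METAP1 (r = 0.966).

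MTR (ENSG00000116984, chr1:236795281-236903981, plus strand) had 1127, 1390.4 and 1341 normalized reads in CR3. It had 1206, 1157 and 1237 in reverse, 1131, 1108 and 1061 in scramble, and 1055, 1001 and 1170.3 in mCherry. A pair of CR3 libraries lay above all others, and the CR3 library at 1127 lay below the reverse libraries and within the range of scramble and of mCherry. The log2 differences were 0.09, 0.22 and 0.26 against reverse, scramble and mCherry (SE 0.0743 each). Without CR3 replicate 2 or CR3 replicate 3 none of the 3 was past the threshold, nor was the one against mCherry without mCherry replicate 2 or the one against scramble without scramble replicate 2 or 3, while the one against reverse passed without CR3 replicate 1. The call against mCherry was also lost in fits of 2 groups. Reverse minus mCherry was 0.16 (unadjusted p = 0.0454, limma adjusted p = 0.508). PEAK1 (r = 0.967) and MAP1B (r = 0.962) had the nearest profiles.

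SLC7A11 had the largest downward difference of the 6 genes in CR3. SLC7A11 (ENSG00000151012, chr4:138164097-138242349, minus strand) had 695, 993 and 930.0 normalized reads in CR3. It had 1368, 1485 and 1352 in reverse, 1571, 1527 and 1766 in scramble, and 1167, 1079 and 1708 in mCherry. The highest CR3 library was below the lowest of the other 9, and the mCherry libraries were the most spread, with the third near the scramble level. CR3 stood at 0.623 of the reverse mean, 0.538 of the scramble mean and 0.662 of the mCherry mean. The log2 differences were -0.70, -0.91 and -0.58 (SE 0.139 each), the 249th, 87th and 416th lowest of all tested genes. Without mCherry replicate 3 the one against mCherry was -0.38, and all 3 stayed past the threshold whichever of these libraries was left out. IFRD1 (r = 0.980) and GAR1 (r = 0.978) ran nearest to SLC7A11.

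**Figure D4:**
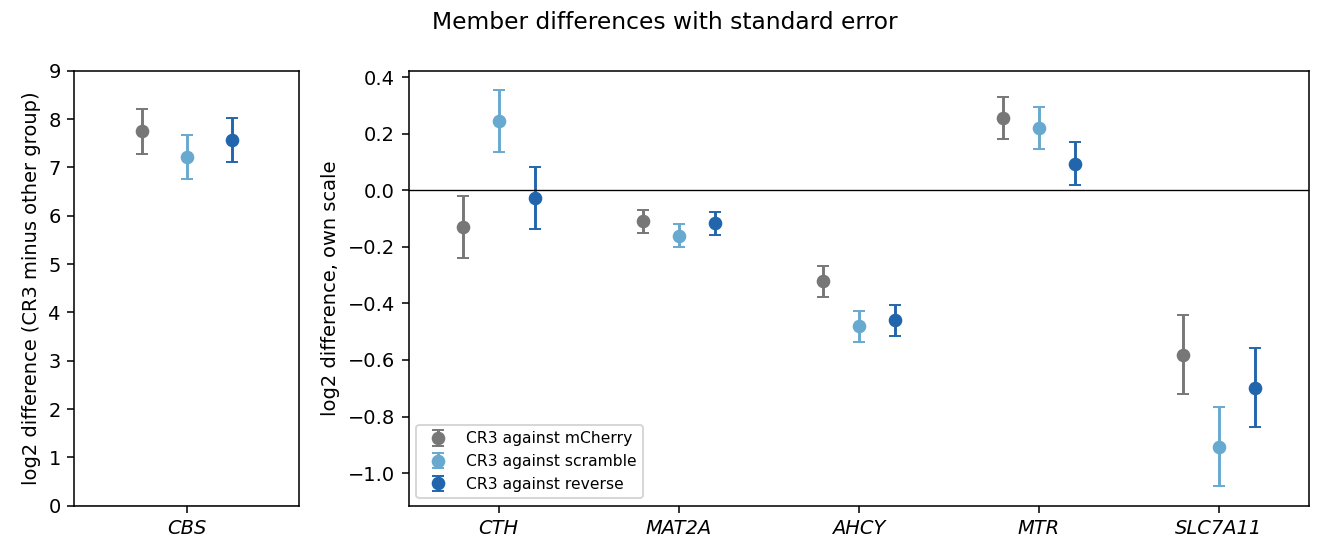
Log2 differences of CR3 from mCherry, scramble and reverse for the 6 genes, with standard errors from limma (3 libraries per group). CBS is on an axis of its own at 7.21 to 7.74. SLC7A11, AHCY and MAT2A lie below 0 in all 3 comparisons, MTR above 0, and CTH on both sides.

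The plot of member differences orders the genes. Counted as a description, 4 of the 6 genes were past the threshold against reverse, where 33.8% of all tested genes were, 5 against scramble (38% of all) and 4 against mCherry (28.7% of all). Those past it against all 3 groups were CBS, which was higher, and AHCY and SLC7A11, which were lower, where 11% of all tested genes were higher and 11.3% lower. The choice of genes used these comparisons, so nothing is read from the counts. The 3 comparisons share the CR3 libraries and are not independent. In comparisons that the choice did not use, none of the 6 passed. Of all tested genes, 0.657% passed in reverse against mCherry, 1.58% in scramble against mCherry and 0.468% in reverse against scramble. Before adjustment, limma gave p under 0.05 for 2, 3 and 1 of the 6, in the same order. The share of all genes at that unadjusted level was not counted, so nothing is read from these counts. Among the adjusted calls without CR3, SLC7A11 in scramble against mCherry was the one that turned. It was 0.33 (SE 0.139, limma adjusted p = 0.288) with all libraries and 0.53 (adjusted p = 0.0137) without mCherry replicate 3.

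Gene lengths were taken as the union of all annotated exons. They were 6786 bases for CBS, 2414 for CTH, 11374 for MTR and 9645 for SLC7A11. Per kilobase of that length, SLC7A11 stood below MTR and CTH in CR3 and above both in mCherry. CBS was last in each of these groups. In CR3, AHCY had a mean of 1161 and MAT2A of 912 normalized reads per kilobase, and their libraries did not overlap. MTR at 113, CTH at 111, SLC7A11 at 90.5 and CBS at 85.4 followed. Among these, the libraries of MTR and CTH overlapped, as did those of SLC7A11 with all 3 others. In mCherry, AHCY at 1452 and MAT2A at 983 were again first, followed by SLC7A11 at 137, CTH at 121, MTR at 94.6 and CBS at 0.302, with SLC7A11 overlapping CTH. In CR3 the CBS level was near that of SLC7A11 by these lengths. The CBS-203 transcript has 2453 bases, and by that length CBS would stand higher. The place of CBS in the CR3 order therefore depends on the length used.

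The other genes of these routes were taken as 11 lists of 136 genes in all, of which 135 have a row and 117 were tested. In CR3, 8 of the 117 (6.84%) were higher and 30 (25.6%) lower than in all 3 groups, where 11% and 11.3% of all tested genes were. The lists' median log2 difference was -0.04 against reverse, -0.06 against scramble and -0.05 against mCherry, beside 0.01, 0.01 and 0.00 over all tested genes. Scaling by library size alone, which raised the median of all genes by the shifts given beside MAT2A, gave 16 higher (13.7%) and 16 lower (13.7%), where 17.9% of all tested genes were higher and 6.03% lower. The library size counts of single lists below stand against those shares, and their other counts against 11% higher and 11.3% lower. The values below use the deposited size factors and come from limma.

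Folate one-carbon enzymes supply the methyl group that MTR uses. Of 15 tested, none was higher and 6 were lower against all 3 groups: SHMT2, MTHFD1, MTHFD2, MTHFD1L, TYMS and FPGS. MTHFD2, a mitochondrial enzyme of this route, averaged 3599 ± 205 normalized reads in CR3, against 4976 ± 178 in reverse and 4579 ± 219.5 in mCherry (SD, n = 3 each), and had 5168, 5099 and 4970.5 in the scramble libraries. TYMS, which makes thymidylate, had the largest difference of those named by p, at -0.59, -0.70 and -0.53 against reverse, scramble and mCherry (adjusted p = 8.39e-07, 1.04e-07 and 3.51e-06). MTHFD1 had differences of -0.35, -0.44 and -0.26, and MTHFD1L of -0.57, -0.63 and -0.40. By library size alone, 1 gene of the list was higher and 5 were lower.

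Cobalamin handling, which serves MTR, had 2 of 11 tested genes higher and none lower, where 11% of all tested genes were higher and 11.3% lower. LMBRD1, which takes part in the export of cobalamin from lysosomes, averaged 733 ± 22.6 in CR3, against 590 ± 25.8 in reverse, 531 ± 17.0 in scramble and 573 ± 28.8 in mCherry (SD, n = 3 each). Its partner in that step, ABCD4, was higher by 0.34, 0.41 and 0.26 (adjusted p = 0.00317, 0.000664 and 0.0224). The uptake receptor CD320 had -0.19, -0.29 and -0.18, past the threshold against reverse and scramble only (adjusted p = 0.0389, 0.00309 and 0.0533). CUBN, a receptor for cobalamin bound to intrinsic factor, had -0.40, -0.21 and -0.64, past the threshold against mCherry only (adjusted p = 0.0764, 0.354 and 0.0083). In the remaining methionine cycle, 1 of 6 tested genes was higher, AHCYL2, a relative of AHCY, at 1271 ± 94.0 in CR3, against 1054 ± 70.6 in reverse, 1042 ± 40.9 in scramble and 1042 ± 26.6 in mCherry (SD, n = 3 each). MAT2B, the regulatory subunit that binds MAT2A, had differences of -0.04, -0.03 and -0.05 (adjusted p = 0.609, 0.743 and 0.620). AHCYL1, another relative of AHCY, had 0.10, 0.08 and 0.12 (adjusted p = 0.0783, 0.12 and 0.033), and ADK, which removes the adenosine that AHCY releases, had -0.04, -0.09 and -0.03 (adjusted p = 0.575, 0.202 and 0.677). BHMT and BHMT2, which remethylate homocysteine with betaine in liver and kidney, were not tested and averaged under 1 normalized read in CR3 and mCherry. Of 4 tested small molecule methyltransferases, 1 was lower, GAMT, the last enzyme of creatine synthesis, with differences of -0.37, -0.31 and -0.40 (adjusted p = 0.00897, 0.0226 and 0.00652), and it was no longer past the threshold against all 3 by library size alone. TPMT, which methylates thiopurine drugs, had 0.25, 0.24 and 0.18 (adjusted p = 0.0112, 0.0113 and 0.0656), while PEMT, which methylates phospholipids, had -0.07, -0.18 and -0.13 (adjusted p = 0.623, 0.172 and 0.373).

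Of the genes downstream of CBS and CTH, 3 of 10 tested for hydrogen sulfide and sulfite, 2 of 10 for other uses of cysteine and 3 of 13 for glutathione were past the threshold against all 3 groups, where 22.3% of all tested genes were. SELENBP1 and CDO1 had the largest differences, and both were nearly absent outside CR3. SELENBP1, which oxidizes methanethiol and releases hydrogen sulfide, had 136, 133 and 129 normalized reads in CR3. It had none in the reverse libraries, 1 read in 1 scramble library and 1 read in 1 mCherry library. Against a floor of 3 reads in each reverse library, the CR3 level was at least 44.8-fold higher. The count ratio was 432.5 (95% counting interval 77.2 to 17100) against scramble and 410.0 (73.2 to 16200) against mCherry. CDO1, which oxidizes cysteine on the way to taurine, had 10.3, 16.7 and 10.6 in CR3 and at most 3.07 in any other library, a count ratio of 6.45 (2.72 to 18.6) against reverse, 10.3 (3.73 to 39.7) against scramble and 13.1 (4.16 to 65.9) against mCherry. Like CBS, these genes entered the test only through the CR3 libraries, so their calls are a description, and some markers given beside CBS moved with them too.

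Of 10 tested genes for hydrogen sulfide and sulfite, TXN and TXNRD1, thioredoxin and its reductase, were the 2 that were lower. TXNRD1 averaged 8864 ± 457 in CR3, against 11951 ± 374 in reverse, 12654 ± 516 in scramble and 11337 ± 705 in mCherry (SD, n = 3 each). SQOR, which oxidizes sulfide in mitochondria, had 0.23, 0.21 and 0.14 (adjusted p = 0.0463, 0.066 and 0.254). Of 10 tested genes for other uses of cysteine, CDO1 was higher and GOT1, an aspartate aminotransferase, was lower, with differences of -0.17, -0.20 and -0.14 (adjusted p = 0.00566, 0.00115 and 0.0162). NFS1 and ISCU, which take sulfur from cysteine into iron-sulfur clusters, had differences of 0.05 and 0.04 against reverse, 0.05 and -0.01 against scramble, and 0.08 and 0.08 against mCherry, with adjusted p between 0.309 and 0.883.

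Glutathione genes had 1 of 13 tested higher and 2 lower (1 and 1 by library size alone). GCLC, the catalytic subunit of the first and limiting step of glutathione synthesis, averaged 1608 ± 81.7 in CR3, against 2013 ± 80.0 in reverse, 1966 ± 70.1 in scramble and a mean of 1850.3 in mCherry (SD, n = 3 each). GSR, glutathione reductase, was lower, with differences of -0.41, -0.44 and -0.40 (adjusted p = 7.73e-07, 3.17e-07 and 1.31e-06). GPX4, which reduces lipid peroxides with glutathione, had -0.08, -0.12 and -0.19 (adjusted p = 0.332, 0.139 and 0.0274). GGT7, of the gamma-glutamyltransferase family, was higher and had 843, 711 and 763 normalized reads in CR3, against 474, 524 and 535 in reverse, 410 to 480 in scramble and 459 to 501 in mCherry.

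**Figure D5:**
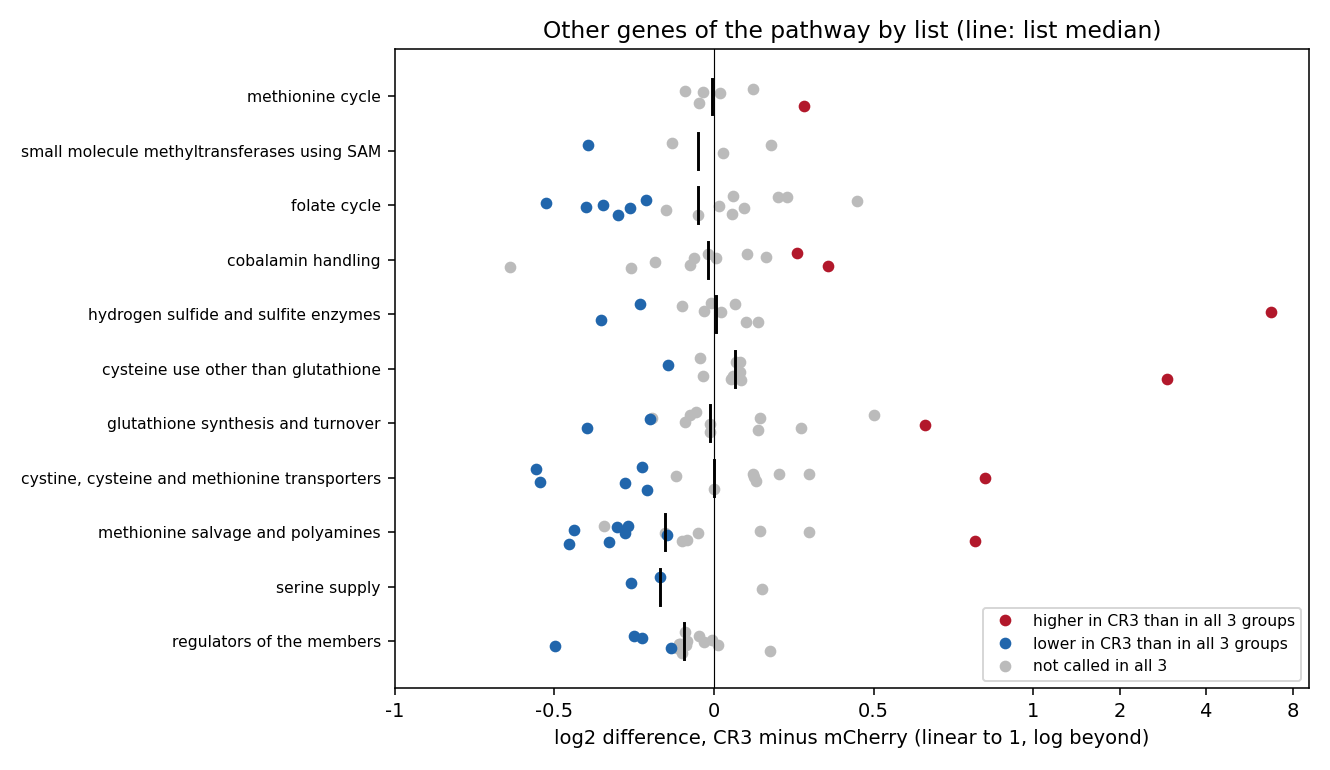
Log2 differences between CR3 and mCherry for the tested genes of the 11 lists, 1 point per gene and a line at each list's median. The axis is linear up to 1 and logarithmic beyond. Red and blue points are genes past the threshold against all 3 groups, and the 2 red points farthest to the right are SELENBP1 and CDO1.

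The plot of pathway lists shows most genes within 0.5 of 0 on the log2 scale. Among 13 tested transporters of cystine, cysteine and methionine, 1 was higher and 5 lower: SLC7A5, SLC1A5, SLC38A1, SLC38A2 and SLC43A2. SLC38A2, a neutral amino acid importer, averaged 10521 ± 424.5 in CR3, against 15729 ± 561 in reverse, 14810.0 ± 330.5 in scramble and 15340.0 ± 813 in mCherry (SD, n = 3 each). SLC43A1, which carries large neutral amino acids, was the higher one, with 169, 106 and 125 normalized reads in CR3, against 74.7 to 96.1 in reverse, 87.3, 66.4 and 88.5 in scramble, and 78.3, 69.8 and 69.3 in mCherry. By library size alone 4 transporters were higher and 2 lower, with 17.9% of all tested genes higher and 6.03% lower. SLC3A2, the heavy chain that pairs with SLC7A11, had 4069, 3726 and 3987 in CR3, against 4021, 4405 and 4087 in reverse, 4468, 4471 and 4538 in scramble, and 3960, 3983 and 3825 in mCherry. It was 1 of 3 list genes, among 117 tested, past the threshold in a comparison without CR3. All 3 passed in scramble against mCherry, where 1.58% of all tested genes did. SLC3A2 had 0.20 there (limma adjusted p = 0.0415), SLC7A5 0.27 (adjusted p = 0.014) and ODC1 0.23 (adjusted p = 0.0232). Calls among all genes in that comparison ranged from 102 to 599 when 1 library was left out.

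Methionine salvage and polyamine genes, which draw on S-adenosylmethionine, had 1 of 15 tested higher and 7 lower: MTAP, APIP, ENOPH1, SMS, ODC1, AZIN1 and SMOX. By library size alone 2 were higher and 4 lower. MTAP, which opens the salvage route, averaged 3165 ± 212 in CR3, against 4510.2 ± 204 in reverse, 4447 ± 91.2 in scramble and 4302 ± 484 in mCherry (SD, n = 3 each). ODC1, the first enzyme of polyamine synthesis, was lower, with differences of -0.43, -0.53 and -0.30 (adjusted p = 2.13e-06, 1.8e-07 and 1.28e-04). MRI1, the isomerase that acts after MTAP, went the other way, at 334, 373 and 354 normalized reads in CR3, against 192, 196 and 222 in reverse, 183, 185 and 172 in scramble, and 204, 209 and 188 in mCherry. In the supply of serine, which CBS consumes, PHGDH and PSAT1 were lower in CR3, with PHGDH at -0.24, -0.24 and -0.26 (adjusted p = 0.0231, 0.0177 and 0.0156) and PSAT1 at -0.22, -0.21 and -0.17 (adjusted p = 0.00471, 0.00545 and 0.0298). SRR, which converts serine between its mirror forms, had 0.17, 0.35 and 0.15 (adjusted p = 0.341, 0.0467 and 0.444). Neither PHGDH nor PSAT1 was past the threshold against all 3 groups by library size alone, and leaving out mCherry replicate 2 or CR3 replicate 3 removed both.

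Of 17 tested regulators of these genes, none was higher and 4 were lower: ATF4, NFE2L2, MYC and NUDT21. By library size alone 1 was higher and 2 were lower. ATF4 and NFE2L2 encode transcription factors that activate SLC7A11, among many stress genes. ATF4 had differences of -0.17, -0.20 and -0.13 against reverse, scramble and mCherry (adjusted p = 0.00813, 0.00203 and 0.0378). NFE2L2 had -0.17, -0.19 and -0.23 (adjusted p = 0.0155, 0.00589 and 0.00236). The shifts of all genes by library size alone, given beside MAT2A, were not small beside these differences. NFE2L2 averaged 3315 ± 93.5 in CR3, against 3720.1 ± 72.1 in reverse, 3781 ± 28.6 in scramble and 3882 ± 298 in mCherry (SD, n = 3 each). MYC was lower, with differences of -0.73, -0.68 and -0.50 (adjusted p = 1.75e-08, 3.31e-08 and 1.61e-06). NUDT21, a subunit of the 3′ end cleavage machinery with a part in MAT2A splicing, was lower, with differences of -0.35, -0.28 and -0.25 (adjusted p = 1.23e-04, 7.76e-04 and 0.00285). BAP1, a deubiquitinase that represses SLC7A11, was higher against reverse and mCherry, by 0.16 and 0.18 (adjusted p = 0.0325 and 0.0222), and had 0.13 against scramble (adjusted p = 0.0772). Without CR3 replicate 3 the count of lower regulators was 2.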

How the data were processed

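PolyA RNA of 12 doxycycline-treated HCT116 libraries was sequenced, with stranded TruSeq kits per the labels' protocols. Per the submitters' processing notes, STAR, Salmon and featureCounts were used with GRCh38, beside DESeq2, edgeR, GATK, MultiQC, Trim Galore and FastQC. Their versions, their roles and the strand setting of the counting are not stated there, which leaves overlapping genes uncertain. The values deposited by the authors are read counts per gene divided by a size factor of each library, a unit read from the values themselves, and they had lost the decimal mark at 1 or more. The identifiers fit an older gene set than GENCODE 29, which named 52526 of 63677.

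The counts were rebuilt. All 265152 non-zero cells were whole multiples of the worth of 1 read in their library times a power of 10 (tolerance 1e-07 relative to the smallest multiple). Each power was chosen by likelihood from all libraries of the gene with the group labels, while groups could differ. A second power lay within a ratio of 20 in 1949 cells (0.735%), whose genes were left out. None of the 6 genes had such a cell. The lowest ratio was 67.9 in CBS, against 25800 or more in the other members. With the marks of the 18138 cells that kept them hidden, 98.46% were found. On simulated data, where 200 genes changed in CR3 and every other gene had 1 mean for all groups, 99.856% of cells were recovered. The real data held far more differences, with 22.3% of tested genes past the threshold against all 3 groups. The simulated spread was also smaller than the one assumed in rebuilding.

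Limma 3.58.1 in R 4.3.3 was fitted with a mean-variance trend to log2(normalized reads + 1) of all 12 libraries in 4 groups. Genes needed at least 10 reads in 3 libraries, and 15382 were tested. P-values were two-sided, adjusted by Benjamini-Hochberg and called under 0.05. Fold changes of low genes are understated on this scale. Weighting of the rebuilt counts by voom was an alternative. In the same simulation, 93.8% of 2-fold changes among 15263 genes were called in CR3 against mCherry. Python 3.11.15, numpy 2.4.6, pandas 2.3.3, scipy 1.17.1 and matplotlib 3.10.9 were used. The 6 genes, the lists and the tests were chosen with earlier results of these data known. Named genes were the 6, up to 4 per list by the smallest p in CR3 against mCherry (1 of them is not reported here), all list genes called where their number is given, and the nearest profiles by Pearson's r of log2 levels; marker genes and neighbours outside that rule were named after their values were seen. Alternatives were another pseudocount, filter, scaling, voom, reading of the cells, replicate block, fits of 2 groups and each library left out.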

Additional observations from a re-analysis of the deposited data

How the results depend on the processing

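Apart from 1 alternative reading of the table, CBS was higher and AHCY and SLC7A11 lower in CR3 than in each other group under all settings tried. That reading took every cell at its smallest whole number without group labels, which by construction makes any count that is a multiple of 10 too low. AHCY then reversed to 0.785 against mCherry and 0.625 against scramble, and to 1.08 in reverse against scramble, CTH moved to 1.33 against scramble, MAT2A to 1.00 against mCherry, and MTR to 2.46 against mCherry and 1.32 against scramble. Calls fell to 747, 858 and 687 for CR3 against reverse, scramble and mCherry, 587 against all 3, 35 for reverse against mCherry, 33 for scramble against mCherry and 26 for reverse against scramble. List calls were 2 for salvage and polyamines, 1 each for hydrogen sulfide and sulfite, glutathione and regulators, and 0 for the methionine cycle, methyltransferases, folate, cobalamin, other uses of cysteine, transporters and serine supply.

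The causes of the other changes were not tested unless the setting itself removes samples or genes. With a pseudocount of 5 the CBS differences were 6.35, 6.15 and 6.41 against reverse, scramble and mCherry. Library size alone gave 4064 genes higher and 1544 lower in CR3 against reverse, 4494 and 1804 against scramble and 3563 and 1265 against mCherry, where the deposited size factors gave 2614 and 2587, 2949 and 2889, and 2170 and 2246. It moved MAT2A to -0.0300, -0.0698 and -0.0202 and AHCY to -0.372 against reverse and -0.390 against scramble, and list calls to 2 for the methionine cycle, 1 for other uses of cysteine and 0 for serine supply. With at least 1 read in any library, reverse against scramble had 113 calls and serine supply 1. At least 50 reads gave 50 calls for reverse against mCherry, 38 for reverse against scramble and 1 for other uses of cysteine. Keeping ambiguous genes gave 167 and 129 calls for reverse against mCherry and against scramble. Fits of 2 groups gave 60 calls for reverse against mCherry, 80 for scramble against mCherry, and list calls of 1 for cobalamin, 1 for other uses of cysteine and 0 for serine supply.

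Replicate numbers did not pair the libraries: same-numbered libraries of different groups correlated between -0.126 and 0.064, and 1 of 12 libraries matched its own number best. With the number as a replicate block, scramble against mCherry had 154 calls instead of 243, no other count moved by over 1.5 times, and of the 6 genes MAT2A against reverse was the 1 call against a group that was lost.

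Leaving out 1 library at a time gave 102 to 599 calls for scramble against mCherry and 83 to 194 for reverse against mCherry, both highest without mCherry replicate 3. List calls ranged from 0 to 2 for serine supply and for methyltransferases, 1 to 2 for other uses of cysteine and 2 to 5 for regulators. Small differences between the groups without CR3 changed sign: CBS ranged from -0.116 to 0.658 in reverse against mCherry and from -0.885 to 0.0228 in reverse against scramble, MTR from -0.0154 to 0.0973 in scramble against mCherry, SLC7A11 from -0.0118 to 0.319 and MAT2A from -0.0175 to 0.0289 in reverse against mCherry. SLC7A11 in scramble against mCherry ranged from 0.196 to 0.527. At 1 to 6 CBS reads in each of the 9 libraries outside CR3, differences among those groups were not detectable.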
